A study of Mus musculus with 6 samples.

Results

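The genes described here, called members, are 49 genes of DNA replication and mitosis, chosen by symbol from the gene table, by role and not by a rule on their levels, with earlier results of these data known. They range from the replicative helicase and the clamp of the DNA polymerases to cyclins, the spindle checkpoint, mitotic kinases and cytokinesis proteins. All 49 were found among the 54532 genes listed, and all 49 were among the 13441 genes tested. Their FPKM was at least 1 in all 6 libraries, so none passed the filter on low values through only 1 group.

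Poly-T selected RNA was sequenced from bone marrow-derived macrophages (BMDMs) that had shared a culture with ID8 cells, an ovarian surface epithelial tumour line of C57BL/6 mice. For 3 libraries (cisplatin) the ID8 cells were first exposed to cisplatin at 40 µM, which forms crosslinks in DNA, and for the other 3 (PBS) to phosphate-buffered saline. Cisplatin was given to the ID8 cells before the co-culture, and the BMDMs of both groups had met ID8 cells. The marrow came from C57BL/6 mice. In the study's methods the marrow cells are called monocytes and no growth factor is named, and neither the sex of the marrow donors nor the length of the co-culture is given in the sources used here. The study's methods speak of biological replicates without saying whether the libraries of a group came from separate cultures or animals, so p-values measure the spread between these libraries, whatever its source.

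A dividing cell loads the MCM helicase at replication origins in G1 with the help of CDC6 and CDT1, activates it with CDC45 and the GINS complex, and copies its DNA behind the sliding clamp PCNA. Genes for these steps are mostly transcribed at the G1/S boundary by E2F factors. Genes for mitosis peak later, in G2 and M, when the MuvB complex, with B-MYB and FOXM1, acts at CHR elements of their promoters, many of which also hold CCAAT boxes bound by NF-Y. Marrow precursors of macrophages divide in response to CSF1, and most leave the cycle as they mature, so the levels of these genes are commonly read as the extent of division in a culture.

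FPKM is the fragments per kilobase of gene, scaled by a total for each library. That total was 103.7% to 104.1% of the recovered reads in cisplatin and 97.4% to 98.7% in PBS. FPKM corrects for the length listed for each gene, so levels set side by side between genes depend on that length. Reads recovered from the FPKM values summed to between 15776238 and 17924686 per library, and each member was counted with from 82 to 8889 reads in a library. Correlation of log2(FPKM + 1) over the tested genes was 0.984 to 0.989 between libraries of a group and 0.871 to 0.877 between groups. All 8 macrophage markers examined were higher in cisplatin (3 with scaling by the Y-linked genes), with a summed level of 4187 to 4341 FPKM against 1635 to 1647 FPKM, most of it Lyz2 (the other 7 summed to 775 to 790.1 FPKM against 474 to 489 FPKM), and Adgre1, Csf1r and Lyz2 were well above 0 in both groups. The 10 myeloid progenitor markers summed to 523 to 559 FPKM in cisplatin and 110 to 117 FPKM in PBS. Markers of ID8 and mesothelial cells went the other way, with 15 genes summing to 247 to 268 FPKM in cisplatin and 1311 to 1414 FPKM in PBS. Lymphocyte markers summed to 442 to 453 FPKM in cisplatin and 195 to 202 FPKM in PBS.

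Between cisplatin and PBS the members differed little in size. Of the 16 genes of origin licensing, the replication fork and nucleotide supply 9 were higher in cisplatin and 2 lower by the adjusted p alone. Of the 27 genes of G2, mitosis and cytokinesis 3 were higher and 14 lower. In all, 68.8% and 63.0% of these groups passed, near the 68.0% of all tested genes (32.9% higher and 35.1% lower). Scaling by 4 Y-linked genes left 0 of the 49 higher and 47 lower. Anln, which encodes the actin-binding cytokinesis scaffold anillin, was the only member that passed both thresholds of the study, an adjusted p under 0.05 and a log2 difference of 1 or more (limma on log2(FPKM + 1), Benjamini-Hochberg over 13441 genes). None of the 49 was upregulated by this test, by its unadjusted p with the same fold, or with the replicate number as a block. With limma voom on the recovered reads 1 was, Ccne1. The 1 call made up 2.04% of the members, against 15.9% of all tested genes, of which 4.67% were upregulated and 11.3% downregulated. In bulk RNA a change in the number of cells of a type and a change in the RNA of each cell cannot be told apart.

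By the adjusted p alone, 13 members were higher and 19 lower in cisplatin, and 17 did not pass. That is 65.3% of the members, close to the 68.0% of all tested genes that passed (32.9% higher and 35.1% lower). The counts of each role group given below stand beside these same shares. In 34 members no cisplatin library overlapped a PBS library, which held for 72.4% of all tested genes. The split between directions moved with the scaling, to 19 higher and 12 lower with quantile normalisation, 18 and 13 with scaling by the total of recovered reads, and 17 and 14 with voom. Scaling the libraries by 4 Y-linked genes turned it to 0 higher and 47 lower. That scaling takes Y-linked reads as a measure of the marrow RNA, which holds only if these reads come from the marrow cells, and the sex of the donors is not given. The median log2 fold change of the members was -0.096, beside -0.0011 for all tested genes. In size the median was 0.25 for the members and 0.39 for all tested genes, and 41 members (83.7%) stayed under 0.5, as did 59.6% of tested genes.

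**Figure D1:**
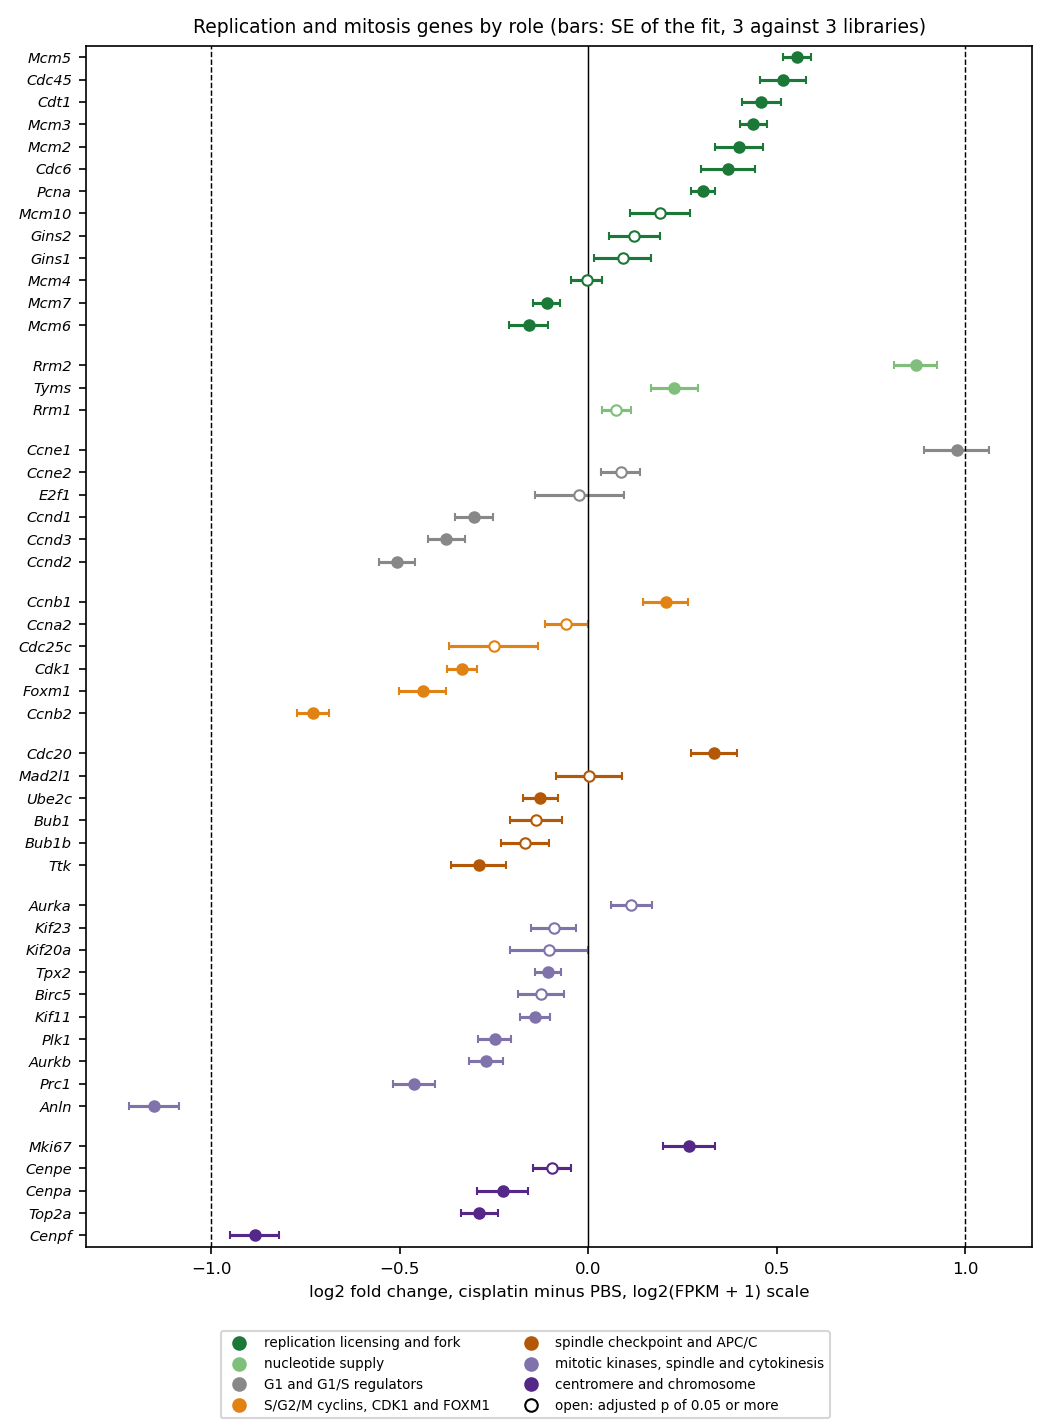
Log2 fold change of each of the 49 members, cisplatin minus PBS, on the log2(FPKM + 1) scale, grouped and coloured by role. Points are the fitted values of 3 against 3 libraries, bars the standard errors, filled points those with an adjusted p under 0.05, and dashed lines the fold change threshold, which Anln at -1.15 passes.

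The replication licensing and fork genes numbered 13, of which 7 were higher and 2 lower at the adjusted p alone, with a median log2 fold change of 0.31. Their mean level was 4.22 ± 0.020 in cisplatin and 3.97 ± 0.0031 in PBS on the log2(FPKM + 1) scale (SD, n = 3 each). Mcm5 (ENSMUSG00000005410, GRCm38, chr8:75109569-75128439, plus strand) encodes a subunit of the MCM helicase. It stood at 31.8, 32.5 and 33.4 FPKM in cisplatin libraries 1 to 3 and at 21.9, 21.5 and 22.2 FPKM in PBS libraries 1 to 3. The difference was well above the spread within either group (log2 fold change 0.55, SE 0.036, adjusted p = 1.36e-05).

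The 6 subunits of the helicase, which is built as a ring with 1 copy of each, did not move together. Mcm3 (0.44, adjusted p = 4.61e-05) and Mcm2 (0.40, adjusted p = 0.00125) were higher with Mcm5 in limma's fit. Mcm4 was at 34.0 ± 0.65 FPKM in cisplatin and 34.2 ± 1.45 FPKM in PBS (SD, n = 3 each), a log2 fold change of -0.0046 with an adjusted p of 0.930. Mcm6 (-0.16, adjusted p = 0.0292) and Mcm7 (-0.11, adjusted p = 0.0291) were lower by a small margin, and neither passed with voom. Mcm6 missed the adjusted p in 4 and Mcm7 in 5 of the 6 fits that left out a library, at 0.0559 to 0.0947 and 0.0647 to 0.0762.

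Of the 6 loading and activating factors, 3 were higher. Cdc45, the helicase activator, went from 7.92 ± 0.37 to 11.8 ± 0.81 FPKM (SD, n = 3 each, adjusted p = 0.000281 at a log2 fold change of 0.52). Cdt1 (0.46, adjusted p = 0.000226) and Cdc6 (0.37, adjusted p = 0.00323), the loaders, were also higher in limma's fit. Cdt1 lies within a longer annotated gene of the same strand, Gm20388, which was listed at 0 in every library. Mcm10, an initiation factor, had a log2 fold change of 0.19 that missed the threshold (adjusted p = 0.0701) and passed it without PBS replicate 2 (0.25, adjusted p = 0.0351). The GINS subunits Gins1 (0.091, adjusted p = 0.327) and Gins2 (0.12, adjusted p = 0.145) did not pass.

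Pcna (ENSMUSG00000027342, GRCm38, chr2:132249162-132253314, minus strand), the sliding clamp, had the highest level of all members, a mean of 73.4 FPKM over the 6 libraries. It measured 80.5, 82.3 and 80.9 FPKM in cisplatin and 66.98, 63.9 and 65.9 FPKM in PBS. The groups did not overlap (log2 fold change 0.31, SE 0.032, adjusted p = 0.000151). Pcna has named copies elsewhere in the genome with which reads may be shared.

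Nucleotide supply had 3 members, 2 of them higher at the adjusted p alone. Rrm2 (ENSMUSG00000020649, GRCm38, chr12:24708241-24714146, plus strand) encodes the small, S-phase-regulated subunit of ribonucleotide reductase, which makes deoxynucleotides. It was at 45.8, 43.2 and 40.2 FPKM in cisplatin and at 22.1, 23.8 and 23.4 FPKM in PBS, a ratio of means of 1.86. Every cisplatin library lay far above every PBS library (log2 fold change 0.87, SE 0.057, adjusted p = 1.38e-05), short of the fold change threshold. The large subunit Rrm1, whose protein is more constant through the cycle, was at 15.3 ± 0.33 and 14.5 ± 0.032 FPKM (SD, n = 3 each, adjusted p = 0.115 at a log2 fold change of 0.075). Tyms, thymidylate synthase, had a log2 fold change of 0.23 (adjusted p = 0.0150), which missed the threshold without cisplatin replicate 2 (adjusted p = 0.0524).

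The promoters of Mcm5 and Rrm2, the most increased genes of these groups, are shown as the 250 bases before the transcription start (RefSeq, GRCm38.p6, 5′ to 3′ on the strand of the gene). Mcm5 is at chr8:75109259-75109508 on the plus strand and Rrm2 at chr12:24708004-24708253 on the plus strand. Capitals mark the letters of the E2F core (TTCCCGC or TTGGCGC) and of the CCAAT box, read on both strands.
Mcm5: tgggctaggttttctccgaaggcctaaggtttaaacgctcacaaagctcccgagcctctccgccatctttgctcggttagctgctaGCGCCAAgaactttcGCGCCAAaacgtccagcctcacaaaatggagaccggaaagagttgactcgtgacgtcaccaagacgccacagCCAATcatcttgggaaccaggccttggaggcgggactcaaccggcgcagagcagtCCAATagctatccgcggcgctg
Rrm2: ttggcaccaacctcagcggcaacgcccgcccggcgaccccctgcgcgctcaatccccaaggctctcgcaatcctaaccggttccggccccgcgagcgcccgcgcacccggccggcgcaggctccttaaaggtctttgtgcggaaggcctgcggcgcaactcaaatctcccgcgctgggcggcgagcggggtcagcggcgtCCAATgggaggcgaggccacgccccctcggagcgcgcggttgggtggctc
The Mcm5 window holds 2 E2F cores, beginning 164 and 149 bases before the start, and 2 CCAAT boxes at 77 and 22. In the Rrm2 window only a CCAAT box at 50 bases before the start was found.

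Of the 6 regulators of G1 and of the G1/S boundary, 1 was higher and 3 were lower at the adjusted p alone. The D cyclins, which link growth signals to CDK4 and CDK6, were all lower in cisplatin. Ccnd2 (ENSMUSG00000000184, GRCm38, chr6:127125162-127152193, minus strand) was at 13.2, 13.4 and 13.5 FPKM in cisplatin and at 18.3, 20.3 and 19.8 FPKM in PBS. Its groups did not overlap (log2 fold change -0.51, SE 0.048, adjusted p = 8.69e-05). Ccnd3 (ENSMUSG00000034165, GRCm38, chr17:47505051-47599691, plus strand) was at 13.9, 14.0 and 14.0 FPKM against 18.3, 17.5 and 19.6 FPKM (log2 fold change -0.38, SE 0.049, adjusted p = 0.000434). Ccnd1 (ENSMUSG00000070348, GRCm38, chr7:144929931-144939925, minus strand) was at 19.7, 20.6 and 19.7 FPKM against 24.0, 24.2 and 26.6 FPKM (log2 fold change -0.30, SE 0.050, adjusted p = 0.00147). In all 3 genes the highest cisplatin library stayed below the lowest PBS library. The spread of the cisplatin libraries of Ccnd3, an SD of 0.11 FPKM, was narrower than that of its PBS libraries, an SD of 1.05 FPKM.

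Cyclin E, the partner of CDK2 at the start of S phase, was represented by 2 genes that differed from each other. Ccne1 (ENSMUSG00000002068, GRCm38, chr7:38097984-38107534, minus strand) measured 5.90, 5.40 and 5.16 FPKM in cisplatin and 2.40, 1.98 and 2.52 FPKM in PBS. This was the largest ratio of means among the members that were higher, 2.39, and no libraries overlapped (log2 fold change 0.98, SE 0.086, adjusted p = 5.84e-05). Its change lay at the edge of the fold change threshold. It passed with a pseudocount of 0.1 (1.22), TPM rescaling (1.15), quantile normalisation (1.11), scaling by the total of recovered reads (1.04) and voom (1.34), and without cisplatin replicate 3 (1.01), PBS replicate 1 (1.001) or PBS replicate 3 (1.03). Ccne2 (ENSMUSG00000028212, GRCm38, chr4:11191351-11204779, plus strand) was at 8.60, 8.35 and 7.80 FPKM against 7.86, 7.49 and 7.77 FPKM, with overlapping groups (log2 fold change 0.086, adjusted p = 0.181), and passed at the adjusted p as higher with voom, quantile normalisation and total reads, as did Rrm1, Aurka and Mcm10. It shares 5622 bases with Ints8 on the opposite strand, and whether reads were counted by strand is not stated. E2f1 (ENSMUSG00000027490, GRCm38, chr2:154559407-154569892, minus strand), an activator of S-phase genes, was at 10.1, 9.83 and 10.9 FPKM against 11.5, 8.45 and 11.7 FPKM. The E2f1 groups overlapped throughout (log2 fold change -0.023, adjusted p = 0.871).

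**Figure D2:**
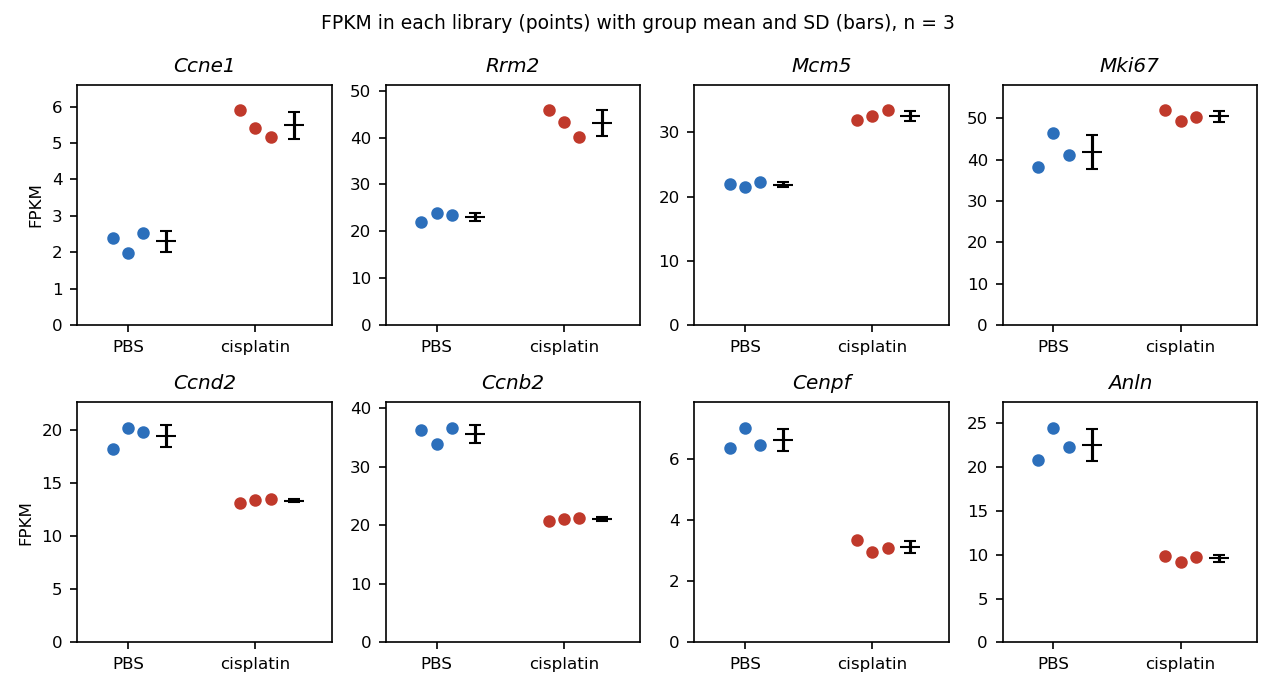
FPKM of 8 members in each library (points), with the mean and SD of each group of 3 (bars), PBS in blue and cisplatin in red, on axes that start at 0. Ccne1, Rrm2, Mcm5 and Mki67 had every cisplatin library above every PBS library, and Ccnd2, Ccnb2, Cenpf and Anln had every cisplatin library below.

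Among the cyclins and regulators of S, G2 and M, 3 of 6 were lower and 1 higher at the adjusted p alone, with a median of -0.29. Ccnb2, a B-type cyclin of the Golgi and cytoplasm chosen here after its values were seen (ENSMUSG00000032218, GRCm38, chr9:70407692-70421547, minus strand), changed most. It was at 20.7, 21.2 and 21.3 FPKM in cisplatin and at 36.3, 33.9 and 36.7 FPKM in PBS. The gap between the groups was far wider than the spread in either (log2 fold change -0.73, SE 0.042, adjusted p = 7.64e-06). Ccnb1 (ENSMUSG00000041431, GRCm38, chr13:100778650-100786570, minus strand), the main mitotic cyclin, was at 18.4, 15.8 and 16.8 FPKM against 14.4, 15.1 and 14.3 FPKM. It was therefore higher in cisplatin (log2 fold change 0.21, SE 0.060, adjusted p = 0.0195), opposite to Ccnb2. The Ccnb1 difference missed the threshold without PBS replicate 1 (adjusted p = 0.0584) or PBS replicate 3 (adjusted p = 0.0587). Both B cyclins have named pseudogene copies, none listed above 1.255 FPKM.

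Their partner Cdk1 (ENSMUSG00000019942, GRCm38, chr10:69335146-69352938, minus strand), the kinase that drives entry into mitosis, was at 11.2, 10.7 and 10.8 FPKM in cisplatin and 14.2, 13.98 and 13.9 FPKM in PBS. No library of one group reached the other (log2 fold change -0.34, SE 0.039, adjusted p = 0.000259). Foxm1 (ENSMUSG00000001517, GRCm38, chr6:128362967-128376146, plus strand), a transcription factor of the G2/M programme, was at 8.96, 7.67 and 8.05 FPKM against 11.1, 11.5 and 11.9 FPKM. It too was lower without overlap (log2 fold change -0.44, SE 0.064, adjusted p = 0.000742). Ccna2 (ENSMUSG00000027715, GRCm38, chr3:36564865-36572150, minus strand), the cyclin of S phase and G2, was at 20.1, 17.8 and 17.9 FPKM against 19.6, 19.8 and 18.8 FPKM. Its groups overlapped (log2 fold change -0.058, adjusted p = 0.394). Cdc25c, a phosphatase that activates CDK1, had a log2 fold change of -0.25 with an adjusted p of 0.102, and of -0.35 with an adjusted p of 0.0292 without PBS replicate 2.

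For the G2/M genes the promoters of Ccnb2 and Cdk1 are shown, both lower in cisplatin and both with the letters of the CHR element (TTTGAA) before the start. Anln and Cenpf, whose changes were larger, do not hold these letters before the start and are not shown. The windows printed are the 250 bases before the start at chr9:70421555-70421804 (Ccnb2, minus strand) and chr10:69352913-69353162 (Cdk1, minus strand) (RefSeq, GRCm38.p6, 5′ to 3′). Capitals mark the CHR element, the CCAAT box and the E2F core on either strand.
Ccnb2: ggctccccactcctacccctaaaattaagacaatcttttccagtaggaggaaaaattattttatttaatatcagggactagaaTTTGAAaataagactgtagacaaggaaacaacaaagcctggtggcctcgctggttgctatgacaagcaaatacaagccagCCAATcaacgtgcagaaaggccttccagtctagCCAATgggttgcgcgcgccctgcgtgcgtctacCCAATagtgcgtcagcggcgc
Cdk1: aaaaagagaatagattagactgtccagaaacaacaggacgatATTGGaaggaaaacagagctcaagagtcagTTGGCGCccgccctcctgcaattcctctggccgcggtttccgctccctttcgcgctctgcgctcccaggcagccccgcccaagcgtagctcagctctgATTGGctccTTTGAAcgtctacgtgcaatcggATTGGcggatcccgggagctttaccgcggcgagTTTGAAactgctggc
In Ccnb2 the CCAAT boxes begin 87, 54 and 21 bases before the start, and the CHR letters 167 bases before it, with another copy from base 5 after it. In Cdk1 the CHR letters begin 71 and 15 bases before the start, the CCAAT boxes 208, 80 and 48 bases before it and the E2F core 178 bases before it.

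Of the 6 spindle checkpoint and anaphase-promoting complex genes, 2 were lower and 1 higher at the adjusted p alone. Cdc20, which activates the complex once the checkpoint is satisfied, went from 19.5 ± 1.05 to 24.8 ± 1.57 FPKM (SD, n = 3 each, adjusted p = 0.00234 at a log2 fold change of 0.33). Ttk, the kinase that starts checkpoint signalling, went from 4.40 ± 0.33 to 3.41 ± 0.23 FPKM (SD, n = 3 each, adjusted p = 0.0102 at a log2 fold change of -0.29). Ube2c, the ubiquitin-conjugating enzyme of the complex, was lower by a narrow margin (-0.13, adjusted p = 0.0449), which was lost in 5 of the 6 fits without a library (adjusted p = 0.0889 to 0.135) and with voom. The checkpoint proteins Bub1b (-0.17, adjusted p = 0.0504), Bub1 (-0.14, adjusted p = 0.116) and Mad2l1 (0.0015, adjusted p = 0.990) did not pass in limma's fit. Bub1b passed without cisplatin replicate 3 (adjusted p = 0.0375) or PBS replicate 1 (adjusted p = 0.0281), and Bub1 without PBS replicate 3 (adjusted p = 0.0415).

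Of the 10 genes of mitotic kinases, the spindle and cytokinesis, 6 were lower and 0 higher at the adjusted p alone. At an unadjusted p under 0.05 the count of higher genes was also 0, and with voom it was 1, Aurka. Anln (ENSMUSG00000036777, GRCm38, chr9:22332012-22389188, minus strand) was at 9.87, 9.10 and 9.70 FPKM in cisplatin and at 20.8, 24.5 and 22.2 FPKM in PBS. The lowest PBS library was far above the highest cisplatin library, with a ratio of PBS to cisplatin means of 2.35 (log2 fold change -1.15, SE 0.066, adjusted p = 7.36e-06). Across all tested genes, 9.20% had a more negative change than Anln. Leaving out each library gave -1.20 to -1.09, whereas limma treat, which tests whether a change exceeds the threshold of 1, gave an adjusted p of 0.268.

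Prc1, which bundles the microtubules of the central spindle, followed (9.56 ± 0.53 to 6.66 ± 0.25 FPKM, SD, n = 3 each, adjusted p = 0.000292 at a log2 fold change of -0.46). It lies entirely within the span of Rccd1 on the opposite strand. The kinases Aurkb (-0.27, adjusted p = 0.00140) and Plk1 (-0.25, adjusted p = 0.00218) and the spindle motor Kif11 (-0.14, adjusted p = 0.0158) were lower to a smaller extent in limma's fit, as was the spindle assembly factor Tpx2 (-0.11, adjusted p = 0.0273). Tpx2 missed the threshold in 5 of the 6 fits without a library (adjusted p = 0.0535 to 0.0923) and Kif11 without cisplatin replicate 2 (adjusted p = 0.0544), and neither passed with voom. Birc5, the survivin subunit of the Aurora B complex (-0.12, adjusted p = 0.107), and the midzone kinesins Kif23 (-0.092, adjusted p = 0.211) and Kif20a (-0.10, adjusted p = 0.403) did not pass. Aurka, the centrosomal Aurora kinase, had the opposite sign (0.11, adjusted p = 0.0992). Without cisplatin replicate 1, Birc5 (adjusted p = 0.0476) and Aurka (adjusted p = 0.0274) passed.

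Centromere and chromosome genes numbered 5, of which 3 were lower and 1 higher at the adjusted p alone. Cenpf, a kinetochore protein of G2 and M chosen here after its values were seen (ENSMUSG00000026605, GRCm38, chr1:189640606-189688086, minus strand), was at 3.33, 2.94 and 3.08 FPKM in cisplatin and 6.36, 7.01 and 6.44 FPKM in PBS. These groups stood apart by a ratio of PBS to cisplatin means of 2.12 (log2 fold change -0.89, SE 0.065, adjusted p = 2.35e-05). At this low level the pseudocount of 1 shrinks the fold, and with a pseudocount of 0.1 (-1.06) or TPM rescaling (-1.02) Cenpf passed both thresholds. Cenpa, the histone variant of the centromere, was lower (-0.23, adjusted p = 0.0208), and stood at -0.22 without PBS replicate 2 (adjusted p = 0.0559) and -0.20 without PBS replicate 3 (adjusted p = 0.0683), where it missed the threshold. Cenpe, a kinetochore motor (-0.096, adjusted p = 0.135), passed in 1 of the 6 fits that left out a library, that without cisplatin replicate 1 (adjusted p = 0.0412).

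Top2a and Mki67, which are both used as labels of dividing cells, moved apart. Top2a (ENSMUSG00000020914, GRCm38, chr11:98992943-99024189, minus strand), the topoisomerase that untangles chromosomes, was at 43.8, 40.6 and 39.7 FPKM in cisplatin and 49.4, 52.9 and 50.03 FPKM in PBS. It was lower without overlap (log2 fold change -0.29, SE 0.049, adjusted p = 0.00163). Mki67 (ENSMUSG00000031004, GRCm38, chr7:135689784-135716361, minus strand), the Ki-67 protein that coats mitotic chromosomes, was at 51.9, 49.2 and 50.3 FPKM against 38.3, 46.4 and 41.0 FPKM. It was higher without overlap (log2 fold change 0.27, SE 0.069, adjusted p = 0.0119), and its PBS libraries spread more widely (SD 4.10 FPKM) than its cisplatin libraries (SD 1.37 FPKM).

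Pairs of related members could be compared within a library, where a scaling by 1 factor per library cancels. The pairs, picked with the values in view, are given without a test. The ratio of Ccne1 to Ccne2 was 0.67 ± 0.020 in cisplatin and 0.30 ± 0.031 in PBS (SD, n = 3 each). Ccnb1 over Ccnb2 was 0.81 ± 0.072 and 0.41 ± 0.031, and Rrm2 over Rrm1 was 2.81 ± 0.16 and 1.59 ± 0.060. Mki67 over Top2a was 1.22 ± 0.042 and 0.82 ± 0.051, so the order of these labels of division was reversed between the groups in every library. For the helicase, Mcm5 over Mcm6 was 0.86 ± 0.059 and 0.52 ± 0.030, and Mcm3 over Mcm7 was 1.63 ± 0.059 and 1.10 ± 0.048. Rrm2 over Anln, a gene of S phase over a gene of cytokinesis, was 4.51 ± 0.32 and 1.03 ± 0.049.

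**Figure D3:**
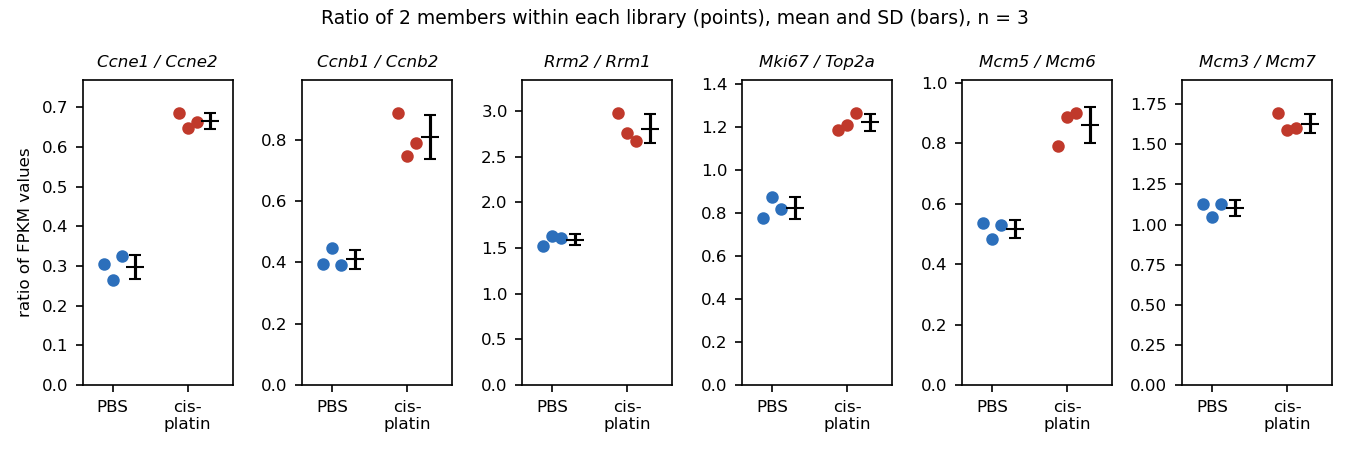
Ratio of the FPKM values of 2 members within each library (points), with the mean and SD of each group of 3 (bars), PBS in blue and cisplatin in red. The 6 pairs plotted are those above other than Rrm2 over Anln, and in each every cisplatin library was above every PBS library, as in Ccne1 over Ccne2 at 0.67 against 0.30.

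Joined, the 16 replication and nucleotide members had a median of 0.27 on the log2 scale, with 9 higher and 2 lower at the adjusted p alone, and the 27 members of G2, mitosis and cytokinesis had a median of -0.14, with 3 higher and 14 lower. Of all tested genes 32.9% were higher and 35.1% lower at the adjusted p alone. Scaling by the Y-linked genes took both medians below 0, to -0.59 and -1.08, and lowered that of all tested genes to -0.83. Quantile normalisation raised the latter to 0.10. Set against the median of all tested genes, 13 of the 16 replication and nucleotide members lay above it and 22 of the 27 later members below. The mean level of the first group was 4.18 ± 0.020 in cisplatin and 3.91 ± 0.0059 in PBS, and of the second 3.71 ± 0.039 and 3.93 ± 0.030 on the log2(FPKM + 1) scale (SD, n = 3 each).

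**Figure D4:**
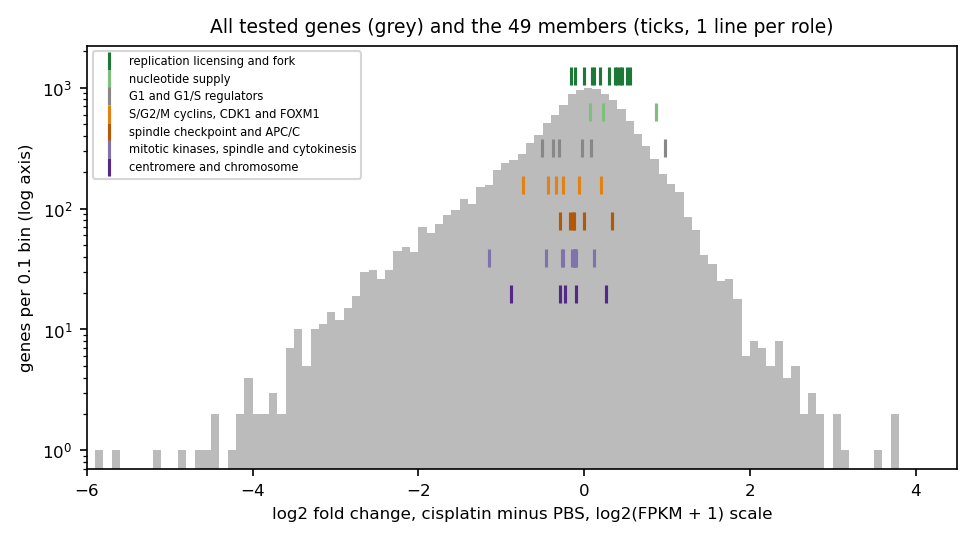
Distribution of the log2 fold change of all 13441 tested genes (grey, genes per bin on a log axis), cisplatin minus PBS, with the 49 members as ticks on 1 line per role. The members lie between -1.15 and 0.98, within the body of the distribution, and those of different roles overlap.

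**Figure D5:**
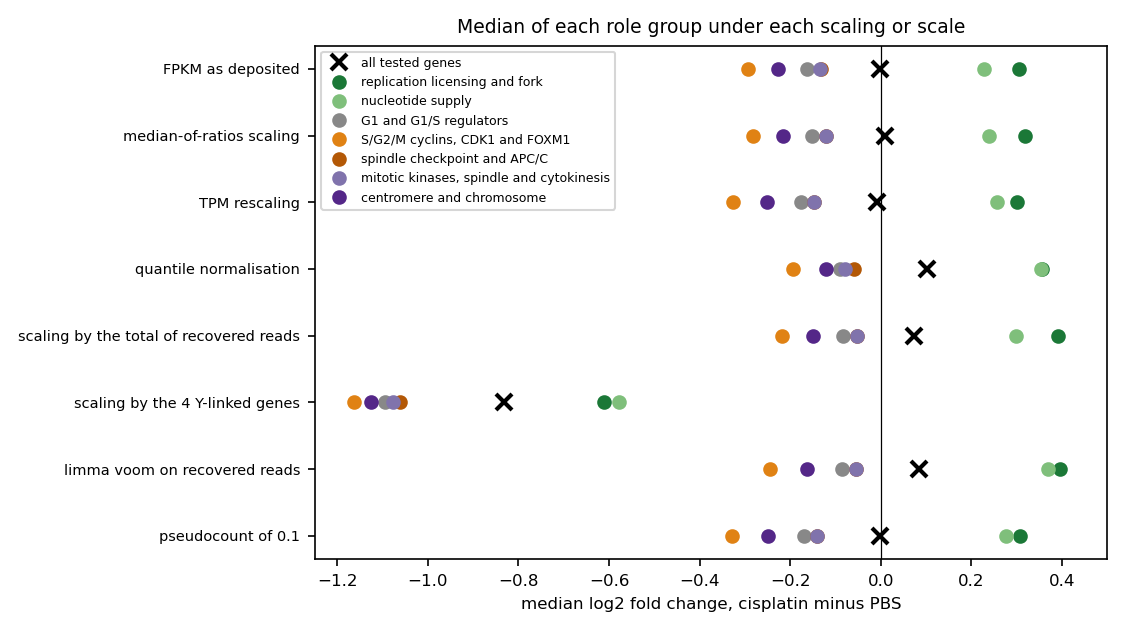
Median log2 fold change of each role group (coloured points) and of all tested genes (crosses), cisplatin minus PBS, under each scaling or scale. Scaling by the Y-linked genes shifts all medians, that of all tested genes to -0.83. Most of these settings apply 1 factor to all genes of a library, so the order of the groups is nearly fixed across them.

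Markers of cell types also differed between the groups. The ID8 and mesothelial list had 9 of 10 tested genes lower and 1 higher in cisplatin at the adjusted p alone, 8 of them downregulated, and Krt19 went from 588 ± 28.8 to 51.1 ± 3.80 FPKM (SD, n = 3 each). Of its 15 genes, Krt7, Igfbp5, Lrrn4, Epcam and Muc16 were below 1 FPKM in both groups. All 10 myeloid progenitor markers were higher, 9 of them upregulated, as were 8 of 8 macrophage markers (3 upregulated) and 6 of 6 tested lymphocyte markers (4 upregulated), although with scaling by the Y-linked genes 9, 3 and 4 of them remained above 0. Erythroid markers summed to 74.2 to 79.0 FPKM in cisplatin and 66.8 to 70.7 FPKM in PBS, with 1 of 5 tested genes higher at the adjusted p alone. Xist, expressed in female cells, was at 7.79 ± 0.19 FPKM in cisplatin and 42.7 ± 5.35 FPKM in PBS (SD, n = 3 each), and all 4 Y-linked genes were higher in cisplatin. Both dividing ID8 cells and dividing marrow cells express the members, and the part of these cells in the members' differences was not tested.

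Other genes of the same pathways came from lists also set up with earlier results known, and their counts stand beside the 32.9% higher and 35.1% lower among all tested genes. Of 38 other replication genes, 17 were higher and 7 lower at the adjusted p alone, with a median of 0.13. None was called at both thresholds by limma, at the adjusted or the unadjusted p, and 1 was with voom. Orc2, a subunit of the origin recognition complex, was at the top (0.83, adjusted p = 0.000254), and Dut, which removes dUTP, at the bottom (-0.89, adjusted p = 9.27e-07), both named after their values were seen. Of 44 other mitosis genes, 9 were higher and 21 lower, with a median of -0.16. Spc24, a subunit of the NDC80 kinetochore complex, was the only one downregulated at both thresholds (20.9 ± 1.998 to 6.63 ± 0.30 FPKM, SD, n = 3 each, adjusted p = 3.23e-06 at a log2 fold change of -1.52). Its direct partner in the complex, Spc25, was higher (0.30, adjusted p = 0.0145). With scaling by the Y-linked genes the medians of both lists were below 0, at -0.76 and -1.05.

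Of 20 further E2F, MuvB, MYB and CDK genes, 11 were higher and 3 lower at the adjusted p alone, with a median of 0.25 that fell to -0.58 with scaling by the Y-linked genes. E2f8, a repressive E2F and itself an E2F target, came closest to the fold change threshold (0.996, adjusted p = 4.40e-06), named after its values were seen, and with voom 1 gene of the list passed it. Of 14 tested CDK inhibitors, pocket proteins and antiproliferative genes, 5 were higher and 8 lower, with a median of -0.30. Ccng1, cyclin G1, a p53 target, was upregulated (41.8 ± 2.27 to 87.8 ± 6.01 FPKM, SD, n = 3 each, adjusted p = 7.85e-06 at a log2 fold change of 1.05). Cdkn2c, the CDK4 and CDK6 inhibitor p18, was downregulated (17.4 ± 0.98 to 6.39 ± 1.08 FPKM, SD, n = 3 each, adjusted p = 4.33e-05 at a log2 fold change of -1.33). Cdkn1a, the p21 inhibitor, was at 71.2 ± 3.10 and 76.1 ± 3.25 FPKM (SD, n = 3 each, adjusted p = 0.118). Among 20 crosslink and recombination repair genes 3 were higher and 6 lower, with a median of -0.045 that was above 0 with quantile normalisation (0.11), voom (0.031), scaling by the total of recovered reads (0.017) and a minimum of 5 FPKM (0.020). Of 67 replication-dependent histone genes, whose transcripts mostly end without the poly-A tail by which the RNA was selected, 8 were tested, with 1 higher and 2 lower.

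Promoter windows from 250 bases before to 50 after the start were matched for 37 of the 49 members, with 40 windows in all, in the RefSeq table (GRCm38.p6). Those without an entry were Mcm4, Gins1, Gins2, Ccna2, Ccnd1, Ccnd2, Ccne2, Foxm1, Aurkb, Tpx2, Kif20a and Cdc25c. On either strand, the CHR letters TTTGAA were found in 18 of these 37 members (48.6%), against 20.2% of all 27025 genes in the table, counting a gene when any of its windows held them. The CCAAT box was in 29 (78.4%, against 41.1%) and the E2F core in 10 (27.0%, against 7.79%). By role, 16 of 21 G2, mitosis and cytokinesis genes (76.2%) and 2 of 13 replication and nucleotide genes held the CHR letters, and 3 of 21 and 7 of 13 (53.8%) held the E2F core. By direction, among members with a window, 11 of the 14 that were lower at the adjusted p alone held the CHR letters, as did 4 of the 13 that were higher. All 11 were G2, mitosis and cytokinesis genes, so this split cannot be told apart from that by role. Anln and Cenpf, the members with the most negative log2 fold changes, had these letters only after the start, from base 22 and 29 in Anln and base 3 in Cenpf. Mki67 and Cdc20, which were higher, also held them. A match is a description of letters and not of a bound site, and no test was made.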

How the data were processed

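The 6 libraries were grouped by the treatment in the sample labels, 3 with cisplatin and 3 with PBS. The authors deposited a table of FPKM per gene. Their methods name LifeScope for alignment and counting and DESeq2 for testing, whereas the submitters' processing notes name fastp, HISAT2 (2.0.5), featureCounts (1.5.0-p3) and mm10, with no role given for each. Whether counting used strand is not stated. No column of sample values was left unused.

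The deposited FPKM values are not counts, so log2(FPKM + 1) was tested with limma (3.58.1, R 4.3.3, lmFit and eBayes with trend) on the 13441 genes that reached 1 FPKM in 3 or more of the 6 libraries, two-sided, with Benjamini-Hochberg adjustment over all of them. Upregulated and downregulated mean an adjusted p under 0.05 with a log2 difference of 1 or more, the thresholds of the study's methods. Fold changes on this scale understate those of genes with low levels. Tables were handled with Python (3.11.15) and pandas (2.3.3). The script was tested on simulated data.

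FPKM times gene length gave whole reads (within 0.01 of a read) for 100% of values under 200 reads, so limma voom was also run on recovered reads, for which the FPKM denominators came to 103.7% to 104.1% of the reads recovered in cisplatin and 97.4% to 98.7% in PBS. The counting error of a member is set by these reads, at least 82 per library. Coordinates are those of the table, identical to GENCODE M21 (GRCm38) for 47 of 49 members. Of the members, 22 overlap another annotated gene, 14 of them a protein-coding one.

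The members, gene lists and tests were chosen with earlier results of these data known. Named with all 6 values were members past both thresholds and a fixed set (Mki67, Top2a, Pcna, Mcm5, Rrm2, Cdk1, Ccnb1, Ccna2, Ccne1, Ccne2, Ccnd1, Ccnd2, Ccnd3, E2f1, Foxm1), and of each other list at most 3 called genes. Others are said to be chosen after their values were seen, apart from marker genes and from Spc25 and Cdkn1a, which were not called. Alternatives were the pseudocount, the filter, 5 scalings, eBayes without trend, voom, a replicate block, limma treat, the adjusted p alone and leaving out each library.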

Additional observations from a re-analysis of the deposited data

How the results depend on the processing

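Under 19 other settings, 821 of 926 values of single members kept their sign and whether they were called, 65 came to be called, 1 no longer was and 39 changed sign, 19 of them with scaling by the Y-linked genes. Members called higher, 0 as reported, numbered 1 with a pseudocount of 0.1, TPM rescaling, quantile normalisation, scaling by the total of recovered reads or voom (Ccne1 each time) and 13 with the adjusted p alone. Members called lower, 1 as reported, numbered 2 with a pseudocount of 0.1 or TPM rescaling (Anln and Cenpf), 25 with scaling by the 4 Y-linked genes, 19 with the adjusted p alone and 0 with limma treat, where Anln had an adjusted p of 0.268. At the adjusted p alone, 19 members were lower as reported, 12 with quantile normalisation and 47 with Y-linked scaling, which left 0 higher. The median of the members moved from -0.096 to -0.0075 with quantile normalisation, -0.018 with total reads, -0.019 with voom and -1.01 with Y-linked scaling.

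Over all tested genes, 628 were upregulated and 1514 downregulated as reported. A pseudocount of 0.1 gave 973 upregulated, limma treat 240 and 982, the adjusted p alone 4424 and 4721, Y-linked scaling 85 and 5181, and voom 1227. Scaling by the Y-linked genes reversed Aurka (-0.83), Ccnb1 (-0.73), Ccne2 (-0.80), Cdc20 (-0.62), Cdc45 (-0.39), Cdc6 (-0.48), Cdt1 (-0.48), Gins1 (-0.77), Gins2 (-0.61), Mad2l1 (-0.84), Mcm10 (-0.64), Mcm2 (-0.54), Mcm3 (-0.53), Mcm5 (-0.41), Mki67 (-0.71), Pcna (-0.68), Rrm1 (-0.86), Rrm2 (-0.098) and Tyms (-0.58), against a median of -0.83 for all tested genes, and left Ccne1 at 0.20 (adjusted p = 0.115). The other 20 changes of sign were in 6 members near 0 and passed the adjusted p neither as reported nor under the setting. Quantile normalisation took Cenpe to 0.0061, E2f1 to 0.081, Kif23 to 0.016 and Mcm4 to 0.074, total reads Ccna2 to 0.025, E2f1 to 0.056 and Mcm4 to 0.080, voom Ccna2 to 0.026, E2f1 to 0.058 and Mcm4 to 0.084, median-of-ratios scaling Mcm4 to 0.0082 and TPM rescaling Mad2l1 to -0.0058. Without a library, E2f1 ranged from -0.16 to 0.053, Mad2l1 from -0.081 to 0.051 and Mcm4 from -0.031 to 0.027. For none of these was the cause tested.

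Leaving out each library in turn gave 0 to 1 members called higher, 1 to 1 lower, 12 to 14 higher and 14 to 19 lower at the adjusted p alone, and 622 to 671 upregulated and 1513 to 1531 downregulated genes. Of the 32 members that passed the adjusted p, 24 did so in all 6 of these fits. No pairing by replicate number was seen: deviations of same-numbered libraries correlated at -0.10, -0.086 and -0.024. These values cannot decide whether the libraries were paired by design. With the replicate number as a block, 0 members were called higher and 1 lower, 13 were higher and 17 lower at the adjusted p alone, and 625 genes were upregulated and 1515 downregulated. With 3 libraries a group, an exact permutation test of 1 gene cannot go below p = 0.1.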
